A study of Mus musculus with 6 samples.

Results

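The 10 genes described here encode the main protein parts of plasma lipoproteins: *Apoa1*, *Apoa2*, *Apoa4*, *Apoa5*, *Apob*, *Apoc1*, *Apoc2*, *Apoc3*, *Apoc4* and *Apoe*. They were chosen by name, as the rows of the deposited table that carry these symbols, and are 10 of the 54446 genes listed. RNA-seq libraries of liver, 1 per mouse, came from 3 WT mice and 3 mice without *Fmo5*. FMO5 is a flavin-containing monooxygenase, an enzyme that is abundant in liver, and the study asked how its absence changes the liver.

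The WT mice were C57BL/6 (C57BL/6J in the study's methods) and the Fmo5(-/-) mice, written *Fmo5*-/- here, carry the knockout in all tissues on the same background. All mice of the study were males of 32 weeks of age, on a chow diet, and the genotypes were kept in adjacent cages. No further allele and no treatment is named for either group. Loss of *Fmo5* in liver and loss elsewhere cannot be told apart. Bulk liver RNA was measured, so fewer cells of a type and less RNA per cell cannot be told apart either. Nothing says that the samples of a genotype came from separate litters or cages.

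Apolipoproteins wrap the lipid of plasma lipoproteins, hold the particles together and act as ligands or cofactors for receptors and lipases. Hepatocytes secrete very-low-density lipoprotein (VLDL) built on apolipoprotein B, and supply most of the plasma pool of apolipoproteins A-I, A-II, C-III and E. Apolipoproteins A-IV and A-V are tied to triglyceride handling: in mice A-IV is made by the small intestine and by the liver, and A-V by the liver. In liver both genes are known targets of CREB3L3 (CREBH), a transcription factor released from the membrane of the endoplasmic reticulum.

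Between 44886286 and 52338675 reads per library were counted on genes. *Fmo5*, on chromosome 3, was at 39807, 37405 and 30240 normalized counts in WT mice 1, 2 and 3 and at 1071, 1102 and 1194 in *Fmo5*-/- mice, or -5.00 on the log2 scale (SE 0.14, edgeR adjusted p = 2.80e-07), in the direction that the labels give. A normalized count is the raw count scaled to a common library size with edgeR's trimmed mean of M-values (TMM), and log2 fold changes are *Fmo5*-/- over WT. Of the 16734 genes that passed the filter on low counts, 229 (1.37%) had an adjusted p under 0.05 in edgeR's quasi-likelihood test, 116 lower (0.693%) and 113 higher (0.675%) in *Fmo5*-/- mice. The 8 hepatocyte markers, which check the labelled tissue, summed to 102774 to 130120 counts per 1e6 (CPM) in WT and 102537 to 129884 in *Fmo5*-/- mice, with 0 calls by edgeR, 0 with an unadjusted p under 0.05 and 0 by DESeq2. The 12 Kupffer cell markers (Kupffer cells are the resident macrophages of the liver) were all at higher means in *Fmo5*-/- mice, 11 of them without overlap (against 13.9% of all tested genes). All 12 had an unadjusted p under 0.05, 1 was called by edgeR and 11 by DESeq2, against 21.8%, 1.37% and 8.96% over all genes. They summed to 277 to 328 CPM in WT and 432 to 789 in *Fmo5*-/- mice. Their part in the results given here was not tested.

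All 10 apolipoprotein genes passed the filter. Of these, 1, *Apoa4*, was called changed, and it fell. DESeq2, the tool of the study, called 3 of the 10 (*Apoa4*, *Apoa5* and *Apoc3*), where it called 8.96% of the 15571 genes to which it gave an adjusted p. Log2 fold changes were negative for 9 of the 10, against 49.2% of all tested genes, and positive for 1, *Apoa1*. The median log2 fold change of the 10 was -0.28, against 0.01 over all tested genes. In 5 genes, *Apoa4*, *Apoa5*, *Apob*, *Apoc3* and *Apoe*, every *Fmo5*-/- mouse was below every WT mouse, where 13.5% of all tested genes were lower without overlap. Abundant genes leaned the same way as a class. Among the 7819 genes with a mean of 500 normalized counts or more, which include 9 of the 10 members, 1.61% were called by edgeR, 21.9% were lower without overlap and 63.9% had a negative log2 fold change. A total of 6 members had an unadjusted p under 0.05 in edgeR's test (*Apoa4*, *Apoa5*, *Apob*, *Apoc1*, *Apoc3* and *Apoe*), where 21.8% of all genes did.

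**Figure D1:**
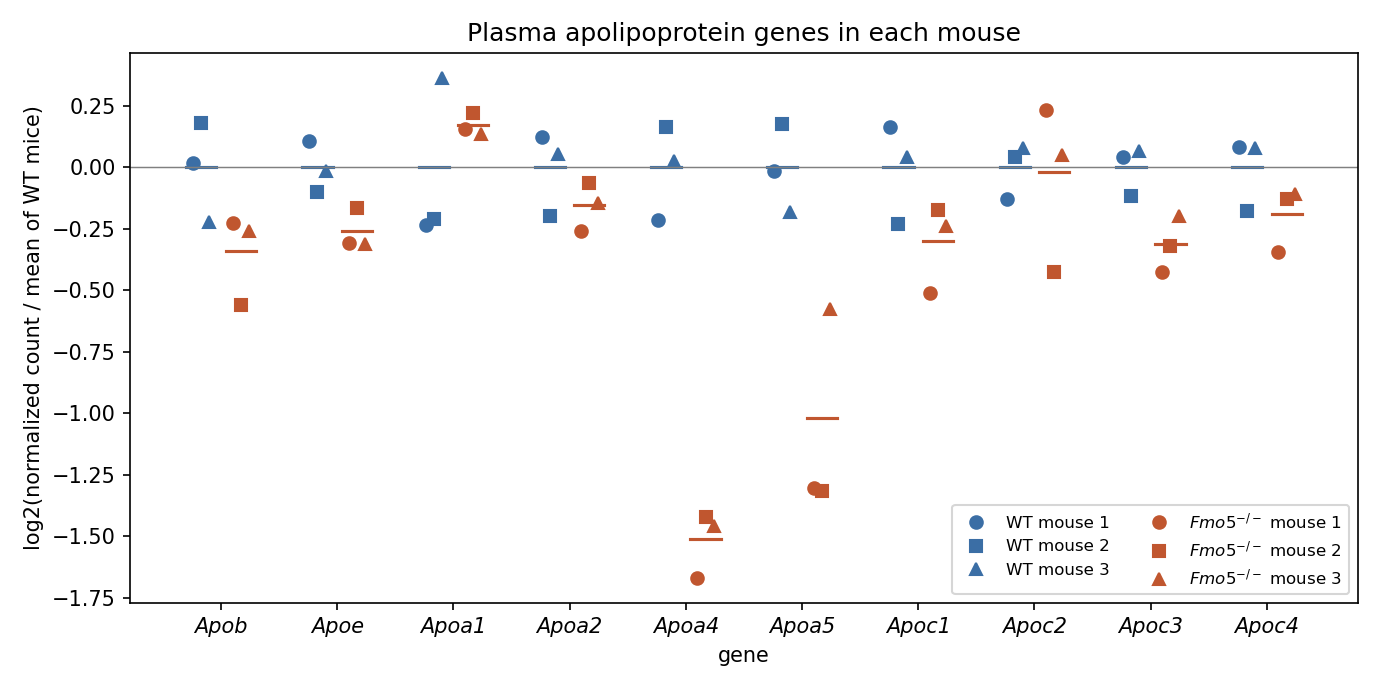
Normalized count of each gene in each mouse, as log2 of its ratio to the mean of the WT mice (y axis), with genes on the x axis and a short line at each group's mean. The 3 *Fmo5*-/- mice lie far below the WT mice for *Apoa4* (1008 to 1196 against 2757 to 3588 normalized counts), and *Apoa5* shows the same with *Fmo5*-/- mouse 3 nearer to WT, while the other genes lie within about 0.6 of the WT mean.

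The genes are set out on the mouse genome in 2 clusters and 2 single loci, given here in GRCm38 (mm10) with the GENCODE vM21 annotation. On chromosome 9 a stretch of 43.3 kb holds *Apoa1* (46228580 to 46230466, plus strand), *Apoc3* (46232933 to 46235636, minus strand), *Apoa4* (46240696 to 46243459, plus strand) and *Apoa5* (46268633 to 46271919, plus strand). On chromosome 7 a stretch of 27.6 kb holds *Apoc2* (19671579 to 19677941), *Apoc4* (19678083 to 19681479), *Apoc1* (19689481 to 19692660) and *Apoe* (19696109 to 19699188), all on the minus strand. *Apoa2* lies alone on chromosome 1 (171225054 to 171226379) and *Apob* alone on chromosome 12 (7977648 to 8016835), both on the plus strand.

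The sequences just upstream of the annotated starts of 3 neighbours in the chromosome 9 cluster are shown because they belong to the called gene, *Apoa4*, and to the other members of that cluster with an entry in the table. They are the plus strand of GRCm38.p6 from the RefSeq table of promoters, cut where the GENCODE or RefSeq gene begins. Capitals mark letters of motifs searched on both strands. CAAAGTT is a start of a site of HNF4A, a hepatocyte transcription factor, for which CAAAGTC was searched as well. The letters of an E-box are CACGTG, and those of a TATA box TATAAA. No marked motif overlaps another. They lie at chr9:46240594-46240695 for *Apoa4*, chr9:46268358-46268607 for *Apoa5* and chr9:46228380-46228579 for *Apoa1*.
Apoa4: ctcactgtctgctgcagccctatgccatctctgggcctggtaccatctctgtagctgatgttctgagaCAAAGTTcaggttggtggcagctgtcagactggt
Apoa5: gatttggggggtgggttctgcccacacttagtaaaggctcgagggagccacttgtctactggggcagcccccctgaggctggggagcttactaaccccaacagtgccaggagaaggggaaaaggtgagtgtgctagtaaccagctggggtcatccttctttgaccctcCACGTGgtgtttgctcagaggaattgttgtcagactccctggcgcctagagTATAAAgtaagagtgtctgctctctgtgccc
Apoa1: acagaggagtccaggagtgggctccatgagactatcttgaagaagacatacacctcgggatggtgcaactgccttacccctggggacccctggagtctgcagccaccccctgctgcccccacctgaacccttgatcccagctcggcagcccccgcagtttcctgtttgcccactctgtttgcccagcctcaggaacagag

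The HNF4A letters in *Apoa4* begin 34 bases before the end of the stretch shown, and 8.07% of all 32851 RefSeq promoter windows of 300 bases hold such letters. In *Apoa5* the E-box begins 82 bases and the TATA box 31 bases before the end, and these motifs occur in 7.15% and 13.6% of all windows. None of the letters occur in the *Apoa1* stretch. TGACGT, the start of a cyclic AMP response element of the kind that CREB3L3-like factors bind, was found in 7.51% of all windows and in 0 of the 8 members with a window. *Apoc1* and *Apoc3* were not looked at in this way. A match in letters is a description of the sequence, and its absence says only that these letters are not in this window.

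*Apoa4* encodes apolipoprotein A-IV, a protein of chylomicrons, VLDL and high-density lipoprotein (HDL) that activates lecithin-cholesterol acyltransferase. It was at 2757, 3588 and 3264 normalized counts in WT mice 1, 2 and 3 and at 1008, 1196 and 1167 in *Fmo5*-/- mice 1, 2 and 3. Every *Fmo5*-/- mouse was below the lowest WT mouse by a wide margin, and the values within each genotype lay close together. The mean fell by 64.9%, from 3203 ± 419 to 1124 ± 101 (SD, n = 3 each). Its log2 fold change was -1.51 (SE 0.11, 95% interval -1.77 to -1.25, edgeR adjusted p = 7.83e-04). The call held under each of the 9 other settings tried and in each of the 6 fits that left out a library, where the log2 fold change lay between -1.60 and -1.42.

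*Apoa5* encodes apolipoprotein A-V, a scarce plasma protein that promotes triglyceride clearance by lipoprotein lipase. It was at 38862, 44258 and 34563 normalized counts in WT mice and at 15912, 15777 and 26315 in *Fmo5*-/- mice. *Fmo5*-/- mice 1 and 2 were nearly equal and far below WT, and *Fmo5*-/- mouse 3 lay between them and the lowest WT mouse, without overlap. The group means were 39228 ± 4857 and 19335 ± 6045 (SD, n = 3 each), and the log2 fold change was -1.02 (SE 0.21, 95% interval -1.51 to -0.54). The unadjusted p was 0.00132 and the edgeR adjusted p was 0.0588, so *Apoa5* did not pass the threshold. Without *Fmo5*-/- mouse 3 the log2 fold change was -1.31 and the edgeR adjusted p 0.00236, and DESeq2 with all mice gave an adjusted p of 1.23e-05. Over the 6 fits that left out a library the log2 fold change ran from -1.31 to -0.89 and the edgeR adjusted p from 0.00236 to 0.177, with a call in 1 of them.

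That same mouse was the least apart from WT in the Kupffer cell markers. Their summed normalized counts were 37120, 38524 and 21077 in *Fmo5*-/- mice 1, 2 and 3, against 13512 to 15999 in WT. *Apoa4* did not follow this order, being lowest in *Fmo5*-/- mouse 1 and about level in the other two. The part of Kupffer cells in the value of *Apoa5* was not tested.

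*Apoa1* encodes apolipoprotein A-I, the main protein of HDL, and is the member with a higher mean in *Fmo5*-/- mice. It was at 392035, 398627 and 593154 normalized counts in WT mice and at 514167, 536974 and 506999 in *Fmo5*-/- mice. The *Fmo5*-/- mice were close together, above WT mice 1 and 2 and below WT mouse 3, which stood apart. The log2 fold change was 0.17 (SE 0.16, 95% interval -0.19 to 0.53, edgeR adjusted p = 0.580). Without WT mouse 3 it was 0.40 and the *Fmo5*-/- mice were above the WT mice without overlap, but edgeR made no call (adjusted p = 0.0982). Without WT mouse 1 it was 0.072 and without WT mouse 2 0.079.

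*Apoa2* encodes apolipoprotein A-II, the second protein of HDL. It was at 461309, 369687 and 440466 normalized counts in WT mice and at 354405, 405741 and 383511 in *Fmo5*-/- mice. The groups overlapped through WT mouse 2, and the log2 fold change was -0.15 (SE 0.11, edgeR adjusted p = 0.484). The ratio of *Apoa1* to *Apoa2* normalized counts, which compares both HDL genes within a mouse and needs no scaling between libraries, was 850, 1078 and 1347 per 1000 in WT mice and 1451, 1323 and 1322 per 1000 in *Fmo5*-/- mice. WT mouse 3 was inside the range of the *Fmo5*-/- mice and the other WT mice were below it.

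*Apob* encodes apolipoprotein B, the protein on which each VLDL particle is built and a ligand of the LDL receptor. It was at 276373, 309714 and 234254 normalized counts in WT mice and at 233710, 185475 and 228737 in *Fmo5*-/- mice. The groups did not overlap, but the gap was narrow: WT mouse 3 and *Fmo5*-/- mouse 1 differed by less than the spread within either group. The log2 fold change was -0.34 (SE 0.14, 95% interval -0.65 to -0.03), with an unadjusted p of 0.0328 and an edgeR adjusted p of 0.187.

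*Apoe* encodes apolipoprotein E, a ligand for clearance of remnant particles, and ranked second among all genes by count. It was at 1512343, 1312154 and 1391940 normalized counts in WT mice and at 1136147, 1253054 and 1132966 in *Fmo5*-/- mice. All *Fmo5*-/- mice were lower, with *Fmo5*-/- mouse 2 close to WT mouse 2, and the log2 fold change was -0.26 (SE 0.10, 95% interval -0.50 to -0.02, edgeR adjusted p = 0.190). Macrophages are known to make *Apoe* too. Kupffer cell markers were higher in *Fmo5*-/- mice, and their part in the value of *Apoe* was not tested.

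The *Apoc* genes encode small exchangeable proteins that tune lipolysis and uptake. *Apoc3*, whose product inhibits lipoprotein lipase and remnant uptake, was at 84994, 76290 and 86558 normalized counts in WT mice and at 61419, 66094 and 71966 in *Fmo5*-/- mice. The groups did not overlap, and the log2 fold change was -0.31 (SE 0.10, 95% interval -0.54 to -0.09). The unadjusted p was 0.0125 and the edgeR adjusted p was 0.123, while DESeq2 gave an adjusted p of 0.0309. *Apoc1*, whose product inhibits lipoprotein uptake, was at 176825, 134515 and 162767 normalized counts in WT mice and at 110968, 139962 and 133839 in *Fmo5*-/- mice. WT mouse 2 lay among the *Fmo5*-/- mice, with a log2 fold change of -0.30 between genotypes (SE 0.13, edgeR adjusted p = 0.228). *Apoc4*, a minor VLDL protein, was at 25661, 21422 and 25551 normalized counts in WT mice and at 19092, 22137 and 22446 in *Fmo5*-/- mice. The groups overlapped in the same way, and the log2 fold change was -0.19 (SE 0.11, edgeR adjusted p = 0.348).

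*Apoc2* encodes the cofactor that lipoprotein lipase needs. It was counted at only 123.9, 139.5 and 143.1 normalized counts in WT mice and at 159.3, 101.0 and 140.4 in *Fmo5*-/- mice. Both the highest and the lowest value were in *Fmo5*-/- mice, and genotypes differed by -0.02 on the log2 scale (SE 0.20, 95% interval -0.47 to 0.43, edgeR adjusted p = 0.962). Most of the exon bases of *Apoc2* could not be counted, so this level is a lower limit for its mRNA.

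Several of the genes shared an order of mice within a genotype. *Apoa2*, *Apoc1*, *Apoc3*, *Apoc4* and *Apoe* were all lowest in WT mouse 2 among the WT mice. Of these, *Apoa2*, *Apoc1*, *Apoc3* and *Apoc4* were also lowest in *Fmo5*-/- mouse 1 among the *Fmo5*-/- mice. *Apoa4*, *Apoa5* and *Apob* went the other way in WT, with WT mouse 2 the highest. Leaving out WT mouse 2 raised the number of members without overlap from 5 to 8, the added genes being *Apoa2*, *Apoc1* and *Apoc4*, and brought no added call.

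Together the 10 genes held 5.83%, 5.33% and 5.82% of the counts on genes in WT mice and 5.02%, 5.83% and 5.30% in *Fmo5*-/- mice. The means were 5.66 ± 0.28% and 5.38 ± 0.41% (SD, n = 3 each), and the groups overlapped. *Apoe* alone held 2.77% on average in WT and 2.50% in *Fmo5*-/- mice. In these shares of all counts *Apoe* and *Apob* overlapped between the genotypes: *Apoe* was at 2.62% to 2.97% in WT and 2.33% to 2.78% in *Fmo5*-/- mice, and *Apob* at 0.459% to 0.618% and 0.412% to 0.484%. *Apoa4*, *Apoa5* and *Apoc3* did not overlap in shares either, although *Apoc3* nearly touched, with 0.1523% in the lowest WT and 0.1522% in the highest *Fmo5*-/- mouse. The difference arises from the TMM factors, which were 0.956 to 0.975 in WT and 1.00 to 1.08 in *Fmo5*-/- libraries, so that scaling by totals alone raised the median log2 fold change of all genes by 0.11. With that scaling the log2 fold change was -1.40 for *Apoa4* (adjusted p = 0.00128), -0.91 for *Apoa5* (adjusted p = 0.0605), -0.15 for *Apoe* (adjusted p = 0.444) and -0.24 for *Apob* (adjusted p = 0.298) in edgeR. It was 0.08 for *Apoc2*, which changed sign, and of the 10 genes *Apoa4* was again the 1 called.

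Ratios between neighbours on chromosome 9 need no scaling between libraries. *Apoa4* per 1000 counts of *Apoa1* was 7.03, 9.0 and 5.50 in WT mice and 1.96, 2.23 and 2.30 in *Fmo5*-/- mice. *Apoa4* per 1000 counts of *Apoc3* was 32.4, 47.0 and 37.7 in WT mice and 16.4, 18.1 and 16.2 in *Fmo5*-/- mice. Both ratios separated the genotypes. *Apoa5* per 1000 counts of *Apoa1* was 99.1, 111 and 58.3 in WT mice and 30.9, 29.4 and 51.9 in *Fmo5*-/- mice, without overlap but with WT mouse 3 close to *Fmo5*-/- mouse 3. *Apoc3* per 1000 counts of *Apoa1* was 217, 191 and 146 in WT mice and 119, 123 and 142 in *Fmo5*-/- mice, with the smallest gap between WT mouse 3 and *Fmo5*-/- mouse 3. These ratios are of counts in the both-strand column and are no ratio of molecules.

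Along chromosome 9 the log2 fold changes were 0.17 for *Apoa1*, -0.31 for *Apoc3*, -1.51 for *Apoa4* and -1.02 for *Apoa5*. A further 10 annotated genes lie within 100 kb of this cluster, and 3 passed the filter. Of these 3, 0 were called by edgeR or by DESeq2, against 1.37% and 8.96% over all genes. An unadjusted p under 0.05 was found for 1, against 21.8% of all tested genes. *Sik3*, which encodes a salt-inducible kinase, had a log2 fold change of 0.26 (adjusted p = 0.109) and was higher in *Fmo5*-/- mice without overlap, against 13.9% of all tested genes. *Zpr1*, which encodes a zinc finger protein, was at 0.01 and *Bud13*, which encodes a splicing factor, at 0.17.

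Along chromosome 7 the log2 fold changes were -0.02 for *Apoc2*, -0.19 for *Apoc4*, -0.30 for *Apoc1* and -0.26 for *Apoe*. Of 14 further genes within 100 kb, 10 passed the filter, with log2 fold changes from -0.12 to 1.15. Of these 10, 1 was called by edgeR and 2 by DESeq2, against 1.37% and 8.96% over all genes. An unadjusted p under 0.05 was found for 2, against 21.8%, and 3 did not overlap between the genotypes, against 27.4% of all tested genes. *Relb*, which encodes an NF-kB subunit, rose from 124 ± 18 to 275 ± 69 normalized counts (SD, n = 3 each), which is 1.15 on the log2 scale (edgeR adjusted p = 0.0447). It was at 296, 330 and 197 in *Fmo5*-/- mice, lowest in the *Fmo5*-/- mouse with the lowest Kupffer cell markers. Any part of Kupffer cells in the value of *Relb* was not tested. The *Relb* call was lost when any WT mouse or *Fmo5*-/- mouse 1 or 2 was left out, and held without *Fmo5*-/- mouse 3. *Clasrp*, which encodes a splicing regulator, was at 0.42 (adjusted p = 0.0622) and *Clptm1*, which encodes a membrane protein, at -0.12 (adjusted p = 0.459), both without overlap. *Gemin7*, *Zfp296*, *Gm26890*, *Tomm40*, *Nectin2*, *Bcam* and *Cblc* overlapped and lay between -0.03 and 0.17.

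**Figure D2:**
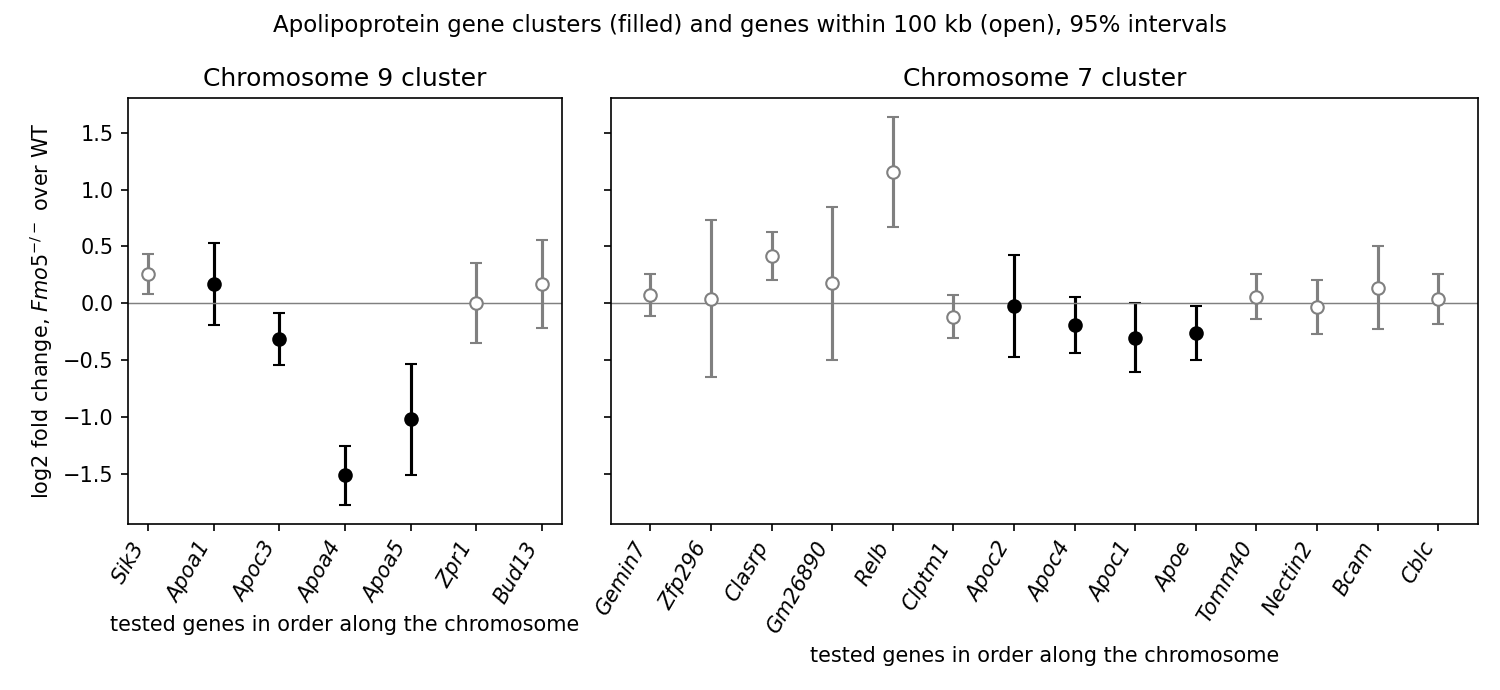
Log2 fold change with its 95% interval, unadjusted for the number of genes (y axis), for the tested genes of each cluster and its flanks of 100 kb in chromosome order (x axis). Filled points are apolipoprotein genes and open points the other genes; *Apoa4* and *Apoa5* lie at -1.51 and -1.02 while *Apoc3* lies at -0.31, and *Apoa1*, *Zpr1*, *Bud13* and *Sik3* lie between 0.01 and 0.26.

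The share of each gene that could be counted differed among the members. The deposited counts of both strands leave out a read that touches exons of more than 1 gene, whatever the strand of the other gene. Of the 1815 exon bases of *Apoa4*, 549 (30.2%) lie in no other annotated gene. The rest are shared with 2 antisense genes, *Gm47528* (634 bases) and *Gm10680* (632 bases). Raw counts of both strands for *Apoa4* were 2603, 3215 and 3192 in WT mice and 1082, 1303 and 1189 in *Fmo5*-/- mice. The single-strand columns, in which a read competes only with genes on its own strand, summed to 9156, 10690 and 10730 in WT mice and to 3535, 4314 and 4025 in *Fmo5*-/- mice. The both-strand column therefore held 28.4% to 30.6% of that sum, close to the share of free exon bases.

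The libraries did not mark strand: 49.9% to 50.1% of all counts fell in the first of the single-strand columns. Reads of *Apoa4* and of its antisense genes therefore cannot be told apart where they overlap. The reads that *Apoa4* lost were 2453 to 7538 per library, and the antisense genes held 100.1% to 100.3% of that number in the sum of the single-strand columns. That sum counts a shared read for *Apoa4* and again for the antisense gene, so the match follows from the counting rule. It is no measure of antisense transcription. In the both-strand column *Gm10680* had 0 counts in all 6 libraries and *Gm47528* had 4 to 19. On the summed single-strand counts *Apoa4* was at 10852 ± 1122 normalized counts in WT and 3739 ± 387 in *Fmo5*-/- mice (SD, n = 3 each). The log2 fold change there was -1.54 (SE 0.11, edgeR adjusted p = 4.74e-04), about that of the both-strand column.

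*Apoa5* shares 524 of its 2522 exon bases with the antisense gene *Gm47544*, and 79.2% are free. The both-strand column held 56.3% to 60.1% of the summed single-strand counts, less than the share of free bases. The summed counts gave a log2 fold change of -0.97 (edgeR adjusted p = 0.0624). For *Apoc2*, 167 of 813 exon bases (20.5%) are free, and the other 646 lie in *Gm44805*, a gene model on the same strand that also takes in 119 bases of *Apoc4*. No choice of strand recovers these bases, so all 3 columns counted *Apoc2* only over the free part, at 110 to 171 raw counts per library. *Gm44805* had 0 counts in every column and library. The remaining 6 members share no exon base with another gene, and the both-strand column held 99.99% to 100% of their summed single-strand counts.

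**Figure D3:**
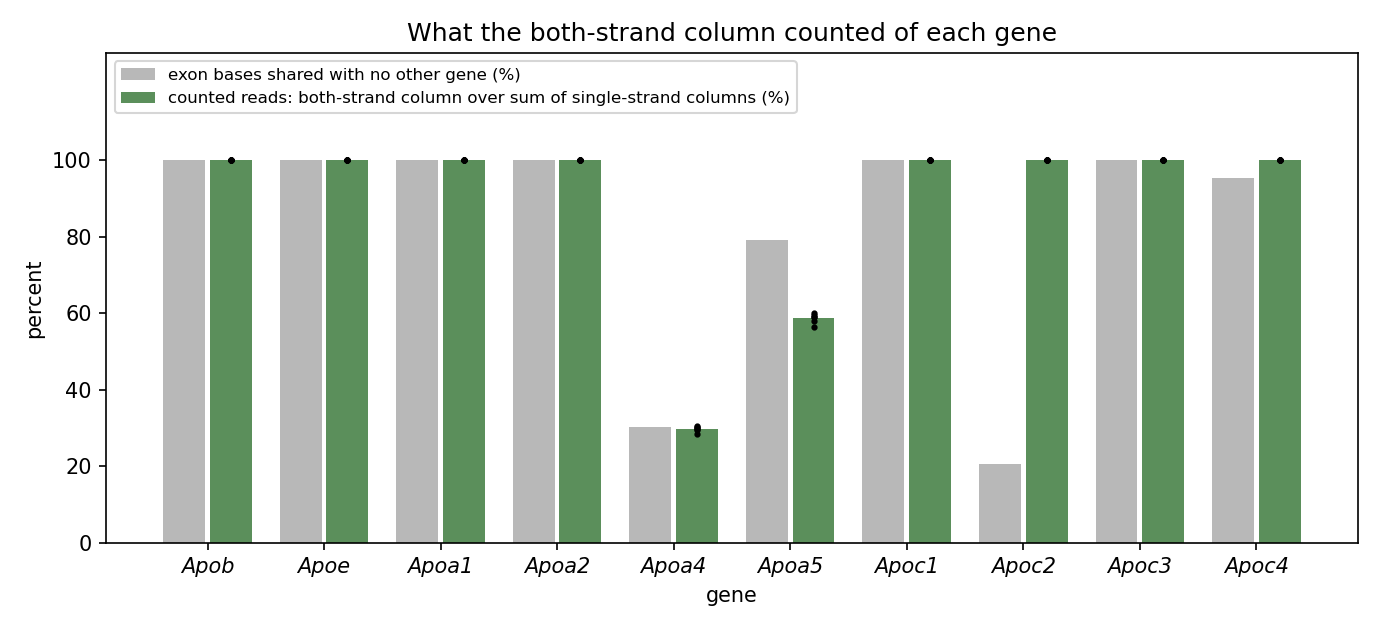
For each gene (x axis), the percent of exon bases that lie in no other annotated gene (grey bars) and the percent of the summed single-strand counts that the both-strand column held (green bars, mean of 6 libraries, with a black point per library). *Apoa4* stands at about 30% in both, *Apoa5* at 79.2% and 56.3% to 60.1%, and *Apoc2* at 20.5% of bases with no loss between columns.

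Levels were compared between genes per length, as CPM per kb of annotated exon, from the summed single-strand counts. The order of the WT means was *Apoa2* (16165), *Apoe* (13464), *Apoa1* (7644), *Apoc1* (4351), *Apoc3* (1669), *Apoa5* (534), *Apob* (402), *Apoc4* (195) and *Apoa4* (123). *Apoc2* was left out because most of its length could not be counted. Of the neighbours in this order, *Apoa2* (14100 to 17595) and *Apoe* (12570 to 14488) overlapped in range in WT, with *Apoa2* above *Apoe* in each of the 6 mice. *Apoa5* (475 to 603) was above *Apob* (344 to 455) in every WT mouse. In *Fmo5*-/- mice the means of *Apoa5* (272, from 219 to 369) and *Apob* (317, from 273 to 344) stood in the reverse order and overlapped, with *Apoa5* above *Apob* in *Fmo5*-/- mouse 3. In the both-strand column, which leaves out reads shared with *Gm47544*, the mean of *Apoa5* was below that of *Apob* in both genotypes. These means were 319 and 402 CPM per kb in WT and 157 and 317 in *Fmo5*-/- mice. The change of order between genotypes thus depends on the column. *Apoa4*, at 42.1 CPM per kb on average, stayed the lowest of the 9 in *Fmo5*-/- mice. Reads of 3'-biased or partial transcripts also enter such a level, so it orders the genes only roughly.

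**Figure D4:**
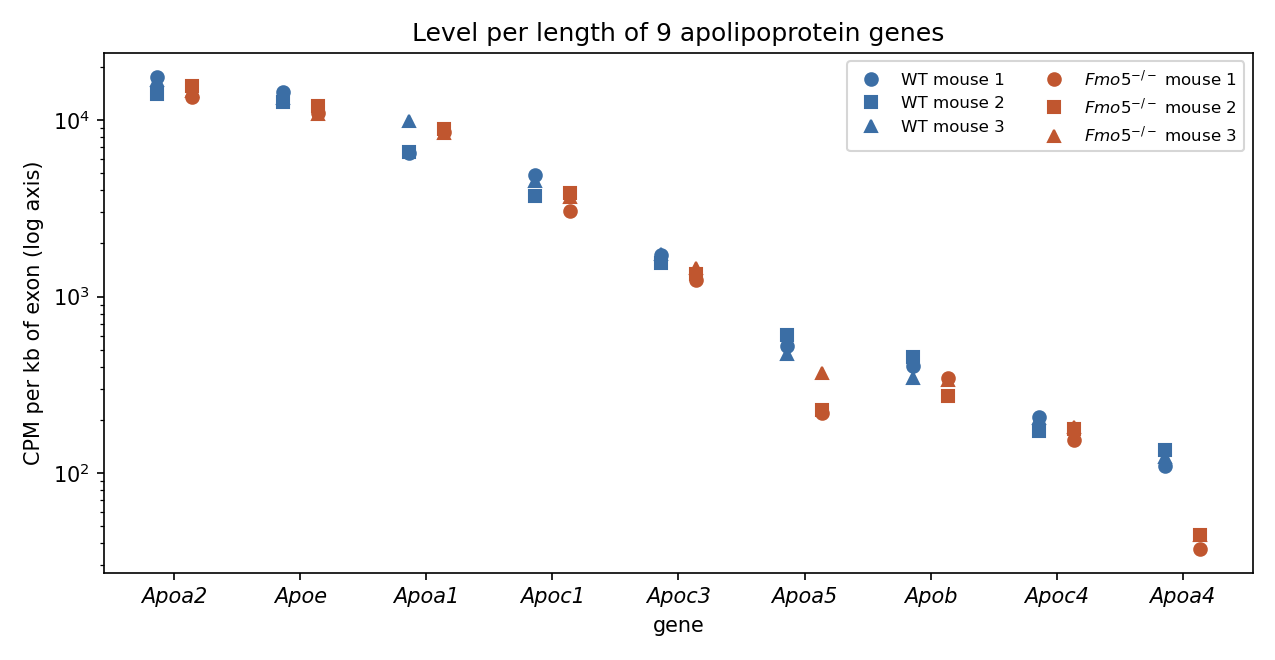
Level of 9 genes in each mouse, as CPM per kb of exon on a log axis (y axis), in the order of the WT means (x axis), with blue for WT and orange for *Fmo5*-/- mice. The levels run from 16165 for *Apoa2* to 123 for *Apoa4* in WT, and *Apoa5* is above *Apob* in all 3 WT mice and in *Fmo5*-/- mouse 3, but not in *Fmo5*-/- mice 1 and 2. These are summed single-strand counts, and in the both-strand column the WT mean of *Apoa5* (319) is below that of *Apob* (402).

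Several genes of a list for VLDL assembly and secretion fell. The list was written with earlier results of these data known. Many of its genes, *Mttp*, *Hspa5*, *Pdia4*, *Fitm1*, *Sec23b* and *Sec24a* among them, are reported as lower by the study itself. Its counts therefore describe the list and are no test against the shares over all genes. Of its 30 genes, 7 fell and 0 rose by edgeR's test, 23 were not called, and DESeq2 called 19. Over all genes DESeq2 called 8.96% of those to which it gave an adjusted p. In 27 the log2 fold change was negative, against 49.2% of all tested genes and 63.9% of those with a mean of 500 or more. The median was -0.36, against 0.01 over all tested genes and -0.06 over those with a mean of 500 or more. Without overlap 19 were lower, against 13.5% and 21.9%, and edgeR called 1.37% of all genes. *Mttp*, the microsomal transfer protein that puts lipid onto apolipoprotein B, fell from 16723 ± 1191 to 11108 ± 1431 normalized counts (SD, n = 3 each), or -0.59 on the log2 scale (adjusted p = 0.0468). *Hspa5*, the chaperone BiP, fell (log2 fold change -0.94, adjusted p = 0.00978), as did *Pdia4*, a protein disulphide isomerase (-0.69, adjusted p = 0.0181). *Fitm1*, which encodes a protein of lipid droplet formation, fell (-0.89, adjusted p = 0.00808), as did *Cidec*, which encodes a lipid droplet protein (-1.31, adjusted p = 0.0228). *Sec23b* (-0.42, adjusted p = 0.0459) and *Sec24a* (-0.45, adjusted p = 0.0468), which encode coat proteins of vesicles that leave the endoplasmic reticulum, also fell. The members that fell thus act in folding, in lipid droplets and in vesicle export as well as in lipid loading.

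Genes that act on lipoproteins after secretion did not lean one way. Of 29 genes for remodelling and receptors, 1 rose and 0 fell by edgeR's test, against 1.37% of all tested genes called. DESeq2 called 4, against 8.96% of all genes to which it gave an adjusted p, and 9 had an unadjusted p under 0.05, against 21.8%. Of the 29, 16 had a negative and 13 a positive log2 fold change, and the median was -0.04. *Lpl*, lipoprotein lipase, for which apolipoproteins C-II, C-III and A-V are cofactor or regulators, was at 503, 513 and 505 normalized counts in WT mice and 1131, 1411 and 788 in *Fmo5*-/- mice, a log2 fold change of 1.13 (edgeR adjusted p = 0.0431). In adult liver *Lpl* is known from macrophages, and *Fmo5*-/- mouse 3 was again the lowest of its group, as in the Kupffer cell markers. Any part of Kupffer cells in the value of *Lpl* was not tested. *Abcg1*, a cholesterol exporter, was at 0.76 (adjusted p = 0.0850) on the log2 scale in edgeR.

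Of 25 genes for other apolipoproteins and HDL proteins, 17 passed the filter, 1 rose by edgeR's test, DESeq2 called 3, 6 had an unadjusted p under 0.05 and the median log2 fold change was 0.10. The shares over all genes were 1.37%, 8.96% and 21.8%. *Apol9b*, of the apolipoprotein L family, which is intracellular rather than a plasma lipoprotein part, rose by a log2 fold change of 0.74 (edgeR adjusted p = 0.0447). Its relative *Apol9a* was at 1.03 (adjusted p = 0.0634), and these near-identical copies may share reads. *Apol10b* was at 2.82 (adjusted p = 0.0687) from low counts.

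Of 40 genes for transcription factors of apolipoprotein genes, 0 were called by edgeR or by DESeq2, 5 had an unadjusted p under 0.05 (against 21.8% of all tested genes) and the median log2 fold change was -0.03. The smallest p belonged to *Usf2* (-0.31, adjusted p = 0.108), an E-box factor, *Nr1h2* (0.27, adjusted p = 0.124), which encodes LXR beta, and *Pparg* (-0.46, adjusted p = 0.135). *Creb3l3* itself was at 14192 ± 2096 normalized counts in WT and 11965 ± 357 in *Fmo5*-/- mice (SD, n = 3 each), or -0.25 on the log2 scale (adjusted p = 0.242). Its groups did not overlap, with 12528 to 16546 in WT and 11722 to 12374 in *Fmo5*-/- mice. Its protein is activated by cleavage, which an mRNA level does not report. A list of 22 genes reported to respond to CREB3L3 was also written with earlier results of these data known, so its counts are a description. Of these 22, which include *Apoa4*, *Apoa5* and *Apoc2*, 21 passed the filter, 4 fell and 0 rose. DESeq2 called 8. The median was -0.49 and 20 had a negative log2 fold change, where 1.37% of all tested genes were called by edgeR, 8.96% of those with an adjusted p by DESeq2, and 49.2% had a negative log2 fold change (63.9% of those with a mean of 500 or more). The 4 were *Apoa4*, *Fitm1*, *Cidec* and *Fgf21*, a fasting hormone of the liver at a log2 fold change of -1.89 (edgeR adjusted p = 0.0495). Over the 5 lists 11 genes were called by edgeR, 31 by DESeq2, and between 2 (without *Fmo5*-/- mouse 1) and 19 (without *Fmo5*-/- mouse 3) when a library was left out.

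**Figure D5:**
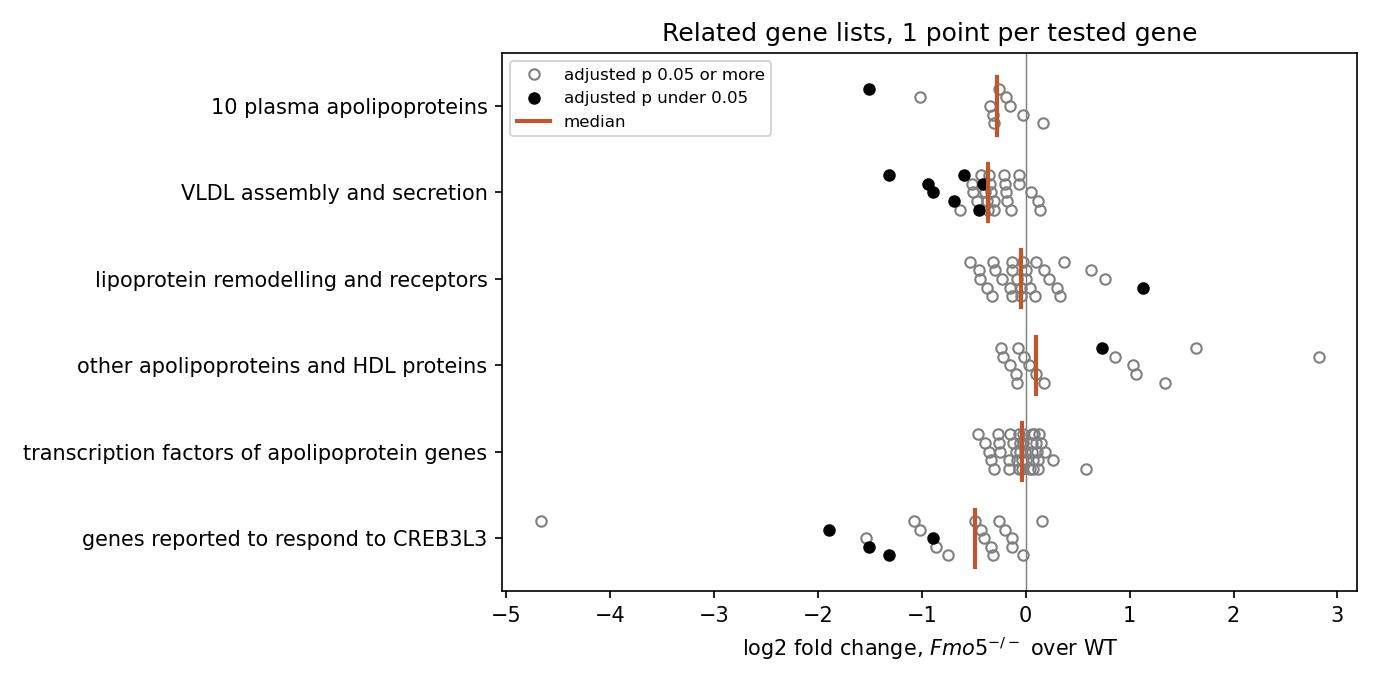
Log2 fold change of each tested gene (x axis) in the 10 plasma apolipoprotein genes and 5 related lists (y axis), with filled points for an adjusted p under 0.05 in edgeR, open points for the rest and a line at each median. The medians were -0.28 for the 10 genes, -0.36 for VLDL assembly, -0.04 for remodelling, 0.10 for other apolipoproteins, -0.03 for transcription factors and -0.49 for genes reported to respond to CREB3L3; lists share genes and were not tested as sets.

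*Apoa4* is also a gene of the small intestine, so enterocyte markers were looked at. Of 12 markers, 7 (*Lct*, *Sis*, *Alpi*, *Cdx1*, *Cdx2*, *Rbp2* and *Krt20*) were under the filter, at 0 to 6 raw counts in every library. Of the other 5, 0 were called by edgeR, and 1 had an unadjusted p under 0.05 and was called by DESeq2. The shares over all genes were 21.8% for the unadjusted p and 8.96% for DESeq2. The markers summed to 192 to 216 CPM in WT and 155 to 165 CPM in *Fmo5*-/- mice, without overlap, and most of that level came from *Fabp2* and *Anpep*, which liver expresses as well. The part of this difference in the value of *Apoa4* was not tested.

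The genes with a mean of 500 normalized counts or more whose log2 CPM followed that of *Apoa4* most closely over the 6 libraries were *Ddx41* (Pearson r = 0.997), *Brcc3* (0.996) and *Vmp1* (0.995). The points fall into the 2 genotypes, so the order shows mainly that these genes differ between genotypes in the same direction.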

How the data were processed

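RNA-seq reads of 6 mouse livers were processed by the authors, who clipped adapters, mapped single reads to mm10 with STAR and had STAR count reads per gene. The deposited raw counts of both strands were analysed. Other deposited columns hold the counts of each strand alone. A further deposited table gives a normalized signal, which was checked to be the raw counts over 1 size factor per library, and the authors' own DESeq2 comparison, which was not used. The annotation release is not given in the sources used here; 54409 of the 54446 identifiers match GENCODE vM21.

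Libraries were grouped by genotype, which the labels give. Between 67753857 and 75632821 reads were listed per library, 66.2% to 69.2% counted on genes. The genotypes did not overlap in ambiguous reads (3.52% to 3.62% in WT and 3.72% to 3.98% in *Fmo5*-/- libraries), unmapped reads (9.72% to 10.2% and 9.10% to 9.20%) or reads that map to several places (11.8% to 13.1% and 10.4% to 11.5%), and the part of these differences in the results was not tested. Genes were kept by filterByExpr (minimum count 10), scaled by TMM and tested with the robust quasi-likelihood fit of edgeR 4.0.16 in R 4.3.3, two-sided, with Benjamini-Hochberg adjustment over 16734 genes; a call is an adjusted p under 0.05. P-values measure the spread between these 3 samples a group, for which no source names separate litters or cages. The steps were tested on simulated data. CPM are per 1e6 scaled counts. Exon lengths are the union of annotated exons.

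Alternatives were DESeq2 1.42.0, RLE factors, scaling without the 20 most abundant genes or without the 10 members, no filter, a mean of 500 before the fit, 1 strand, and each library left out. The sum of the single-strand columns and library totals without TMM factors were added after seeing the data. The members and lists were chosen with earlier results of these data known. Genes named are the 10 members, *Fmo5*, tested genes beside the clusters, called genes of each list or else its 3 with the smallest p, and the 3 genes most like each called member, plus *Creb3l3*, *Abcg1*, *Apol9a*, *Apol10b*, genes that overlap members, and cell type markers, chosen after their values were seen.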

Additional observations from a re-analysis of the deposited data

How the results depend on the processing

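*Apoa4* was the 1 member called throughout. With DESeq2 3 members were called (*Apoa4*, *Apoa5* and *Apoc3*) and with no filter on low counts 4 (*Apob* as well). Leaving out each library in turn gave 1 to 2, with *Apoa5* added without *Fmo5*-/- mouse 3. Members without overlap numbered 3 in place of 5 with a mean of 500 before the fit and with library totals, and 5 to 8 without each library in turn, the most without WT mouse 2. The 11 called genes of the related lists became 31 with DESeq2, 44 with no filter and 4 with a mean of 500 before the fit. They were 2 to 19 without each library in turn, with 4 without WT mouse 1 or WT mouse 2, 2 without *Fmo5*-/- mouse 1 and 19 without *Fmo5*-/- mouse 3. The 2 calls in the clusters and their flanks became 5 with DESeq2, 5 with no filter, 1 with a mean of 500 before the fit, 4 with 1 strand, 4 with the summed strands, 4 with library totals, and 1 to 3 without each library in turn. With 1 strand and with the summed strands, *Gm47528*, *Gm10680* and *Gm47544* also hold reads shared with *Apoa4* or *Apoa5*. Whether the added calls there come from these same reads was not tested. The log2 fold change of *Apoc2*, near 0, changed sign to 0.16 with 1 strand and 0.081 with library totals, and ran from -0.17 to 0.15 without each library in turn. The difference in summed share, *Fmo5*-/- minus WT, was -0.28 percentage points, and -0.50 to -0.09 without each library in turn. Causes were not tested. Over all genes 229 calls became 1395 with DESeq2, 1989 with no filter, 53 with a mean of 500 before the fit and 31 to 763 without each library. With library totals 77 genes fell and 355 rose, against 116 and 113. No paired analysis was possible because the labels carry no replicate numbers. With 3 mice a group the SE of the members' log2 fold changes was 0.10 to 0.21, and counting error is small beside it for all but *Apoc2* (110 to 171 raw counts).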

Other observations

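*Apoc4* stood apart in the split between strands. The first of the single-strand columns held 21.3% to 25.3% of its summed single-strand counts in the 6 libraries, where the libraries as a whole held 49.9% to 50.1% and *Apoe*, its neighbour on the same strand, 51.7% to 52.6%. *Apoc1*, on that strand too, held 55.7% to 56.7%. Within the genotypes it was 21.3% to 24.5% in WT and 23.6% to 25.3% in *Fmo5*-/- mice.

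Of 7 adipocyte markers 3 passed the filter, and edgeR called 1 and DESeq2 2, against 1.37% and 8.96% over all genes. *Cidea* fell (log2 fold change -5.39, edgeR adjusted p = 8.49e-04). *Cfd* was lower without overlap (-3.21, adjusted p = 0.0633), and *Fabp4* overlapped between the genotypes (0.94, adjusted p = 0.418). The other 4, *Adipoq*, *Plin1*, *Lep* and *Retn*, were highest in WT mouse 1, and *Adipoq* was at 38, 6 and 1 raw counts in WT mice and 4, 8 and 0 in *Fmo5*-/- mice. The sinusoidal, stellate, cholangiocyte and erythroid markers had 0 calls by edgeR; 3, 1, 0 and 1 of them had an unadjusted p under 0.05, and DESeq2 called 1 sinusoidal marker, where 21.8% and 8.96% of all genes did so. *Clec4f* was the Kupffer cell marker that was called (log2 fold change 0.70, adjusted p = 0.0275).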
